A study of Mus musculus with 20 samples.

Results

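Wild type splenic B cells were compared between 1 h and 3 h of stimulation through the B cell receptor, to find which genes were switched off again or newly switched on between those times. The comparison rests on 4 of 20 arrays, 2 taken at 1 h and 2 at 3 h, chosen by their titles and not by any measured value. All groups came from C57BL/6 mice of 8 to 12 weeks and both sexes. Splenic B cells were enriched by removing cells that bear CD43, cultured, and stimulated by cross-linking the receptor with the antibody anti-IgM at 10 µg/ml. The wild type groups are labelled mb-1/TAK1+/+ and the groups used for comparison mb-1/TAK1f/f, so that mb-1, the B lineage gene whose promoter drives the deletion, is named for both genotypes. Unstimulated cells (0 h) and cells at 6 and 24 h, again with 2 arrays each, place the step in the time course. No group was cultured for 1 h or 3 h without anti-IgM. Effects of time in culture and of stimulation therefore cannot be told apart. The sources used here do not say whether the 2 replicates of a group are separate mice or cultures, and if they are repeats of 1 culture the p-values reflect technical spread alone.

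Cross-linking of the B cell receptor activates the kinases Lyn and Syk, calcium release, the MAP kinases and NF-κB. Existing transcription factors then switch on immediate early genes without new protein synthesis. Many immediate early transcripts are unstable, and several encode factors that end the signal: phosphatases of MAP kinases, inhibitors of NF-κB and proteins that degrade mRNA. A later wave, to which Myc contributes, prepares a resting lymphocyte for growth by building ribosomes and raising nutrient uptake and nucleotide synthesis. TAK1, encoded by Map3k7, is a kinase that passes receptor signals to NF-κB and MAP kinases.

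Values are log2 intensities made by the submitters with RMA. A change is a difference of log2 values between 3 h and 1 h, where 1 unit is a 2-fold change, given ± its standard error with 2 arrays in each group. A gene was called when limma's adjusted p, over all 11968 genes tested and two-sided, was below 0.05, and "rose" and "fell" are used of called genes only. RMA keeps some background in dim probe sets, so that folds of dim genes are understated. The number of arrays limits the precision, and the median standard error of the step was 0.114. Replicates correlated across genes with r = 0.979 at 1 h and 0.988 at 3 h, where genes are not independent replicates. In bulk RNA, fewer cells of a type and less RNA per cell cannot be told apart, which applies to every change below.

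Between 1 h and 3 h 3133 genes rose (26.2% of those tested) and 3075 fell (25.7%). Of these, 546 rose and 562 fell by 2-fold or more, and the median change over all genes was 0.00. Counts of list members below are to be read against the shares of all genes, 26.2% and 25.7%. Where members are counted as higher or lower at 1 h than at 0 h, the shares of all genes are 17.2% and 26.1%. The falls were led by the Hsp70 family gene Hspa1l, the AP-1 gene Fosb and the co-chaperone gene Dnajb4, at 15.1-fold, 14.8-fold and 9.32-fold. The rises were led by Pus7, which encodes a pseudouridine synthase, at 6.17-fold, the nucleolar gene Rrp1b at 5.39-fold and the interleukin 2 receptor gene Il2ra at 5.29-fold. Without the replicate number as a block 2163 genes rose and 2157 fell, and all 4320 of them were also called with it.

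The fate of the genes induced at 1 h was followed next. At 1 h 2053 genes were higher than at 0 h (17.2%) and 3119 lower (26.1%), and 468 were higher by 2-fold or more. By 3 h, 149 of these 468 had fallen by 2-fold or more and are here called switched off again (1.24% of genes tested). A further 171 fell by less than 2-fold, 99 had no call, 34 rose by less than 2-fold and 15 rose by 2-fold or more. Because both differences use the 1 h arrays, these counts describe the time course and were not tested. The class lost a median of 76.0% of its 1 h rise. At 3 h 88 of the 149 genes were still higher than at 0 h (28.8% of all genes tested were higher), 43 had no call and 18 were lower (30.1% of all genes were lower). Just inside the 2-fold limit lay Med7 (-1.0007) and Dnajb5 (-1.0029), and just outside it Zfp869 (-0.9976), Zbtb21 (-0.9906) and Egr2 (-0.9897).

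A second set of 311 genes (2.6% of genes tested) was newly switched on. They had no call and moved by less than 0.5 at 1 h, then rose by 2-fold or more between 1 h and 3 h, with a median rise of 1.27. They were not transient on this time scale: 310 of 311 were higher than at 0 h at 6 h (32.2% of all genes tested were higher) and 288 at 24 h (31.5%). The exception at 6 h was the noncoding RNA gene Airn. The class was chosen in part on the 0 h arrays, which the differences at 6 h and 24 h also use. These counts are therefore descriptions and were not tested. The class name does not mean silence at rest, since its members Eif3b and Fyn read 11.57 and 11.41, and 10.83 and 10.47, at 0 h. In a mirror image, 156 genes (1.3%) were flat at 1 h and lowered by 2-fold or more only afterwards. Another 15 genes climbed at both steps, and 16 dipped at 1 h and recovered.

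**Figure D1:**
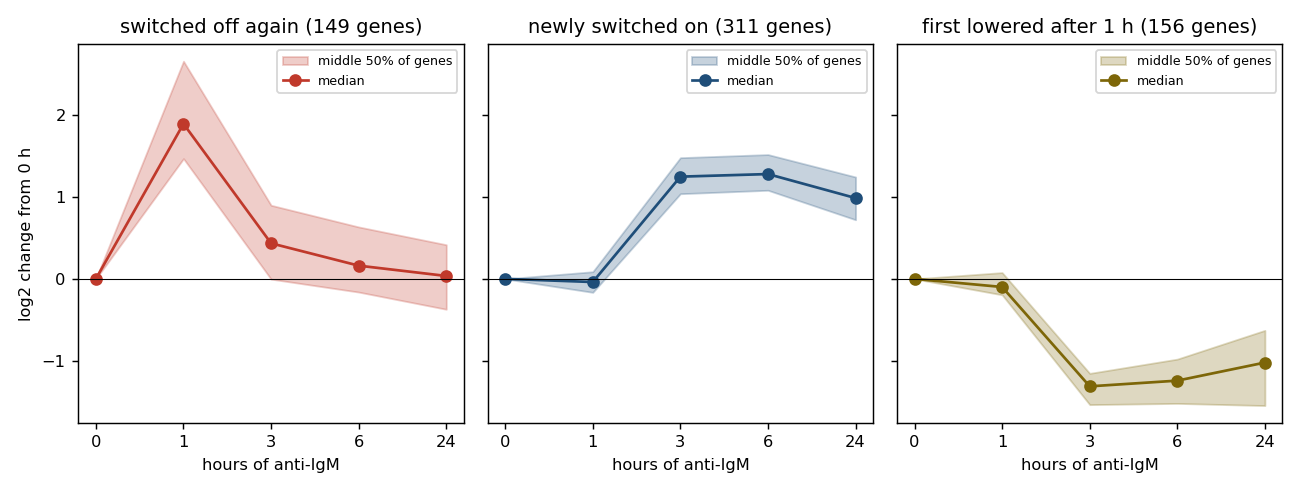
Change from 0 h on the log2 scale (vertical axis) against hours of anti-IgM (horizontal axis, not to scale) in wild type arrays for the genes switched off again, newly switched on and first lowered after 1 h; lines are medians over genes and bands the middle 50% of genes. The first class peaked at a median of 1.89 at 1 h and stood at 0.43 at 3 h, while the second held 1.25 at 3 h and 1.28 at 6 h. The classes were chosen on the values at 0, 1 and 3 h.

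Promoters are shown for the genes switched off again with the largest changes among those whose promoter held a match, because these genes fell together. Hspa1l, Dnajb4 and Dnajb1, which fell further than Bag3 or Dusp8, had promoters in the table without a match. RefSeq promoters (GRCm38.p6) were at hand for 9586 of the genes tested and for 116 of the 149 genes switched off again, and the 250 bases before the start were searched on both strands. The motifs were the cyclic AMP response element TGACGTCA, the E-box CACGTG, the AP-1 site TGACTCA, and the CArG box, the heat shock element and the NF-κB site by name. Stretches around the matches are printed 5′ to 3′ on the gene's strand, with the match in capitals.

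Fosb, chr7:19310179-19310278, minus strand, an NF-κB site 188 bases before the start:
Fosb: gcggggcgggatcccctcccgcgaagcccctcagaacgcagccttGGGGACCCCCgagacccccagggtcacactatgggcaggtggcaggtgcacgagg
Bag3, chr7:128523518-128523582, plus strand, an AP-1 site 20 bases before the start:
Bag3: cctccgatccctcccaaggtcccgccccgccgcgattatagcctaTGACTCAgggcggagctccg
Dusp8, chr7:142095295-142095436, minus strand, cyclic AMP response elements 107 and 63 bases before the start:
Dusp8: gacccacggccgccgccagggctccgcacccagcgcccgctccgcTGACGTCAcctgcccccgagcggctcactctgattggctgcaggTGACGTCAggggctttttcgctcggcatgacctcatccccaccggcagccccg

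The cyclic AMP response element, the site bound by CREB and ATF proteins, stood in 13 of the 116 promoters of genes switched off again (11.2%), against 1.13% of newly switched on genes, 0 of 122 genes first lowered, 2.96% of genes tested and 1.55% of all promoters. The 13 included Dusp1, Dusp8, Btg2, Maff, Plk2 and Ppp1r15a. The E-box stood in 14.7% of promoters of genes switched off again and 14.0% of newly switched on genes, against 9.87% of genes tested and 6.02% of all promoters. For the NF-κB site the shares were 13.8%, 11.7%, 10.7% and 7.25%, for the AP-1 site 5.17%, 1.89%, 3.86% and 4.46%, for the CArG box 0.86%, 0.75%, 1.32% and 1.47%, and for the heat shock element 0, 1.13%, 0.49% and 0.47%. Among the stress-induced heat shock genes described below, the heat shock element stood in 2 of 14 promoters (14.3%), those of Hspd1 and Hspe1. It was searched as an exact pattern, so that looser copies were not counted. All these shares are descriptions of letters in a window, not of binding.

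Immediate early transcription factors fell as a group without returning fully to rest. Of 30 tested members 24 fell and 0 rose, with a median change of -1.20 against 0.00 over all genes, and 15 belonged to the genes switched off again. Their median stood 0.96 above 0 h at 3 h. Fosb, whose protein pairs with Jun proteins to form AP-1, read 8.13 and 7.94 at 0 h, 13.14 and 13.16 at 1 h, then 9.37 and 9.15 at 3 h. The 3 h arrays lay far below both 1 h arrays, and fell by 3.89 ± 0.14 (adjusted p = 1.45e-13). Fos itself read 11.26 and 10.95 at 1 h, then 8.30 and 8.15 at 3 h, and had lost 105% of its 1 h rise. Jun, its partner, fell by 2.44 ± 0.13 from 12.89 and 12.72 to 10.42 and 10.31.

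The stress-responsive factor gene Atf3 fell by 2.21 ± 0.12 but kept much of its induction, with 8.20 and 8.01 at 0 h, 12.38 and 12.16 at 1 h, then 10.20 and 9.92 at 3 h. Egr1 and Egr2 encode zinc finger factors that are switched on by ERK signalling. Egr1 read 12.58 and 12.57 at 1 h, then 11.18 and 10.89 at 3 h, and Egr2 13.21 and 12.99, then 12.38 and 11.84. Both fell (by 1.54 ± 0.12 and by 0.99 ± 0.12), and the arrays of the 2 times did not overlap. Nr4a1, an orphan nuclear receptor gene widely used to report antigen receptor signalling, read 14.17 and 14.00 at 1 h and still 13.63 and 13.36 at 3 h, and fell by 0.59 ± 0.08 (adjusted p = 4.47e-06).

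**Figure D2:**
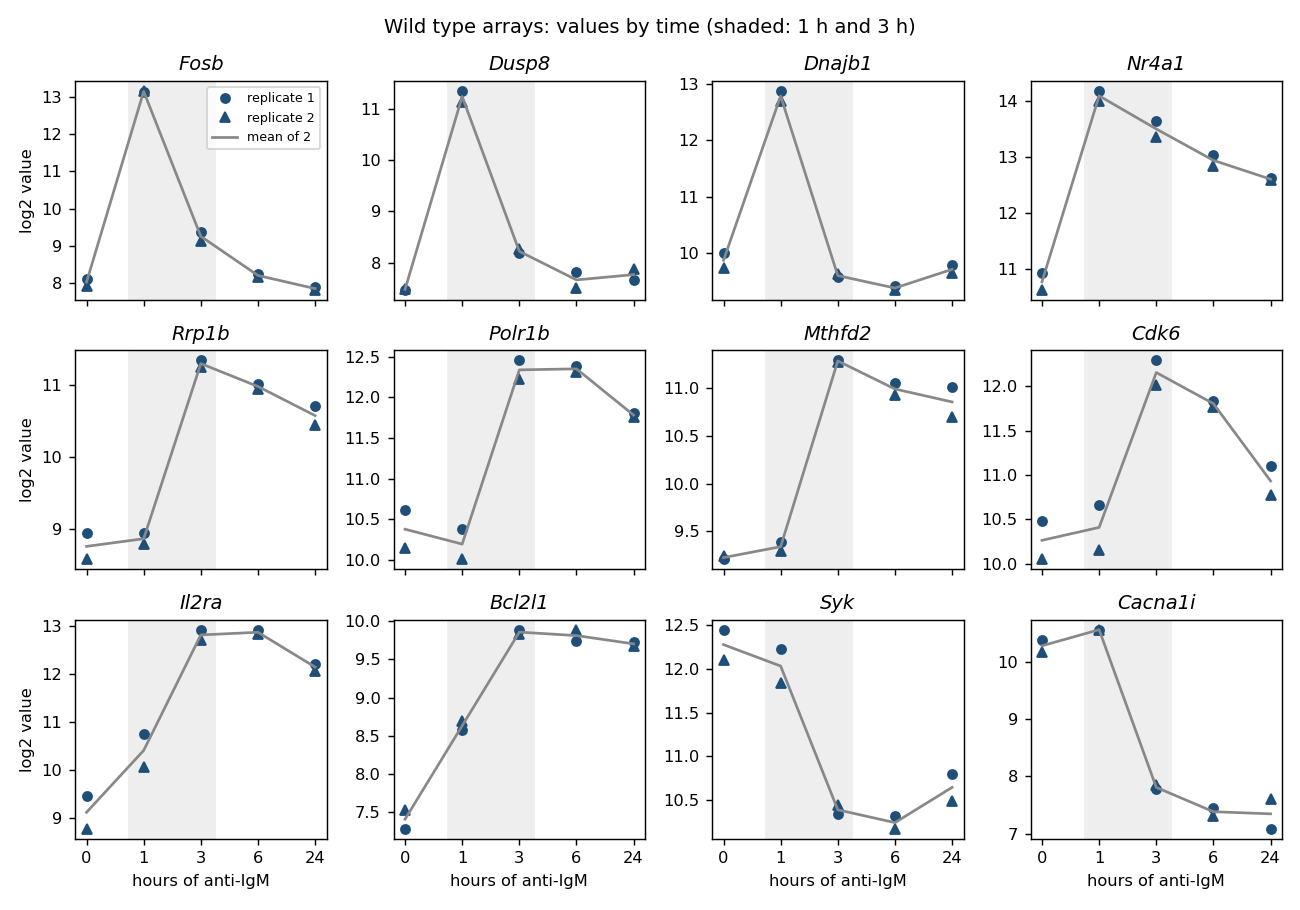
Log2 values (vertical axes, each panel on its own range) of 12 genes in the wild type arrays against hours of anti-IgM (horizontal axis, not to scale); circles and triangles are replicates 1 and 2, the line is their mean, and 1 h and 3 h are shaded. Fosb, Dusp8 and Dnajb1 peaked at 1 h, Rrp1b, Polr1b, Mthfd2 and Cdk6 were flat at 1 h and high at 3 h, Il2ra and Bcl2l1 climbed at both steps, and Syk and Cacna1i dropped after 1 h.

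Genes that restrain MAP kinases fell more often than they rose. Of 19 tested phosphatase and Sprouty genes 11 fell and 2 rose (1 without the replicate block; median -0.52), and 4 were among those switched off again. Those 4 encode dual specificity phosphatases: Dusp8, Dusp10 and Dusp16, which act mainly on JNK and p38, and Dusp1. Dusp8 read 7.46 and 7.49 at 0 h, 11.35 and 11.13 at 1 h, then 8.18 and 8.26 at 3 h, and fell by 3.02 ± 0.12 (adjusted p = 7.29e-13). At 3 h it was still 0.74 above 0 h (adjusted p = 3.42e-05). Dusp16 fell by 2.13 ± 0.09, Dusp1 by 1.98 ± 0.17 and Dusp10 by 1.66 ± 0.10.

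NF-κB subunits and feedback inhibitors moved less. Of 17 tested genes 9 fell and 1 rose (median -0.28), and their median remained 0.57 above 0 h at 3 h. Nfkbiz, a nuclear IκB gene, fell furthest, by 1.03 ± 0.11. Nfkbia encodes IκBα, which holds NF-κB in the cytoplasm. It read 12.67 and 12.79 at 1 h, then 12.01 and 12.17 at 3 h, and fell by 0.64 ± 0.08 (adjusted p = 9.55e-07). Rela fell by 0.62 ± 0.11. Tnfaip3, which encodes the deubiquitinating inhibitor A20, read 12.36 and 12.05, then 11.85 and 11.76, and fell by 0.40 ± 0.10 (adjusted p = 0.00161, but 0.0568 without the replicate block). Tnip2, whose product binds A20, was the member that rose (0.73 ± 0.12).

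Other feedback genes moved in both directions. Of 16 mRNA decay factors 8 fell and 3 rose (1 without the replicate block; median -0.18). Btg2, which recruits a deadenylase, read 13.31 and 13.21 at 1 h and 11.61 and 11.59 at 3 h, below the 12.29 and 12.17 of resting cells. Zfp36, which encodes the AU-rich element binding protein tristetraprolin, fell by 1.27 ± 0.10, the regnase gene Zc3h12a by 1.10 ± 0.11 and Tob2 by 1.05 ± 0.10. Among 11 SOCS and Pim genes 4 fell (2 without the block) and 2 rose: the cytokine signalling inhibitors Socs3 (-0.99 ± 0.13) and Socs2 (-0.94 ± 0.14) went down, while Socs1 (0.71 ± 0.12) and Socs6 (0.64 ± 0.19) went up. The call for Socs6 was lost without wild type 1 h replicate 2 (adjusted p = 0.0648) and without 3 h replicate 2 (adjusted p = 0.173).

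Secreted factors mostly declined. Of 20 tested chemokine, cytokine and TNF family genes 13 fell and 2 rose (median -0.52). Il10, the gene of an anti-inflammatory cytokine that activated B cells can make, read 6.08 and 5.74 at 0 h, 10.27 and 9.67 at 1 h, then 8.40 and 8.79 at 3 h, and fell by 1.37 ± 0.20, which left it well above rest. Tnfsf9, the ligand of 4-1BB, fell by 1.59 ± 0.17 and Ifng by 1.20 ± 0.14. Tgfb3, a TGF-β gene, was in no list and was named for its size: it read 7.57 and 7.15 at 0 h, 10.58 and 10.51 at 1 h, then 7.78 and 7.84 at 3 h. Against this trend Ccl22, a chemokine that attracts CCR4-bearing T cells, read 6.85 and 6.56 at 1 h and 8.41 and 8.11 at 3 h, a rise of 1.55 ± 0.13 (adjusted p = 5.44e-09).

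Heat shock genes fell almost throughout. The proteins are chaperones that refold or hold damaged proteins. Of 16 tested stress-induced members 15 fell and 0 rose (median -1.10), 8 of them switched off again, after all 16 had been higher at 1 h than at 0 h. Hspa1l read 6.37 and 6.55 at 0 h, 10.95 and 10.66 at 1 h, then 6.90 and 6.86 at 3 h, and fell by 3.92 ± 0.14 (adjusted p = 1.45e-13). Dnajb1, an Hsp40 co-chaperone gene, read 12.87 and 12.69, then 9.57 and 9.62, below the 10.00 and 9.73 of resting cells. Its paralog Dnajb4 fell by 3.22 ± 0.11 and Bag3, a co-chaperone that releases substrate from Hsp70, by 3.10 ± 0.12. Hspa1a kept part of its rise and read 10.35 and 10.03 at 0 h, 14.21 and 13.96 at 1 h, then 11.75 and 11.52 at 3 h. Hspa1a has a near-identical copy, Hspa1b, so that its signal can come from either gene.

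Ribosome biogenesis had the highest median of the 26 lists. Of 47 tested genes 45 rose and 0 fell, with a median of 1.28 against 0.00 over all genes, and the same counts held without the replicate block. At 1 h 16 of the 47 had been higher than at 0 h (17.2% of all genes tested were), and 23 belonged to the newly switched on genes (2.6% of all genes tested). Rrp1b, a nucleolar protein gene of ribosomal RNA processing, read 8.94 and 8.79 at 1 h and 11.34 and 11.25 at 3 h, a rise of 2.43 ± 0.10 (adjusted p = 7.29e-13). Polr1b, the second largest subunit of RNA polymerase I, read 10.38 and 10.00, then 12.46 and 12.22. Pno1, needed for the small subunit, and Noc3l, for the large subunit, rose by 2.00 ± 0.12 and 1.99 ± 0.12. All 4 were flat at 1 h.

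In the promoters of these genes, the members with a match and the largest change were Dkc1, which encodes the pseudouridine synthase of ribosomal RNA, the RNA methyltransferase gene Nop2 and Rcl1, whose product takes part in small subunit processing.
Dkc1, chrX:75095787-75095853, plus strand, an NF-κB site 22 bases before the start:
Dkc1: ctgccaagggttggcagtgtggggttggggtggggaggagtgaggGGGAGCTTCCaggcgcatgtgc
Nop2, chr6:125131778-125131873, plus strand, an E-box 60 bases before the start:
Nop2: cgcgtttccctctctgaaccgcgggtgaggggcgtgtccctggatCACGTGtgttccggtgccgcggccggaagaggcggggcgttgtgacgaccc
Rcl1, chr19:29101125-29101185, plus strand, an NF-κB site 244 bases before the start:
Rcl1: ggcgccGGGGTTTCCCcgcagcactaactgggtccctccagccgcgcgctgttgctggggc
The E-box, which Myc and its partner Max can bind, stood in 2 of 42 ribosome biogenesis promoters (4.76%), Imp4 and Nop2. Among genes tested its share was 9.87%. The NF-κB site stood in 5 of the 42 (11.9%), against 10.7% of genes tested.

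Large rises outside the list included other genes of RNA modification and transcription. Pus7 read 8.65 and 8.29 at 1 h and 11.04 and 11.14 at 3 h, the largest rise of all genes (2.62 ± 0.13, adjusted p = 7.01e-12). Znhit6, needed to assemble box C/D small nucleolar RNPs, rose by 2.11 ± 0.15. The RNA polymerase III subunit gene Polr3g, which was lower at 1 h than at 0 h (8.38 and 7.75), read 7.50 and 7.22, then 9.68 and 9.43. Slc19a1, the reduced folate carrier, read 9.51 and 9.56 at 1 h and 11.78 and 11.62 at 3 h, a rise of 2.16 ± 0.11. Mpp7, a scaffold of cell junctions, rose by 2.39 ± 0.10 and Fam185a by 2.28 ± 0.16.

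Genes of protein synthesis rose broadly. Of 26 translation factors 22 rose and 0 fell (median 0.84), 8 of them newly switched on. Eif2b3, a subunit of the exchange factor that reloads eIF2 with GTP, read 9.40 and 9.11 at 1 h and 11.21 and 11.07 at 3 h. The cap-binding protein gene Eif4e rose by 1.27 ± 0.12 and Eif5b by 1.26 ± 0.10. Of 18 aminoacyl-tRNA synthetase genes 15 rose and 1 fell (0 without the replicate block; median 1.07). Tars, for threonine, rose by 1.74 ± 0.16, Lars, for leucine, by 1.47 ± 0.12, Gars, for glycine, by 1.37 ± 0.08 and Nars, for asparagine, by 1.36 ± 0.10.

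**Figure D3:**
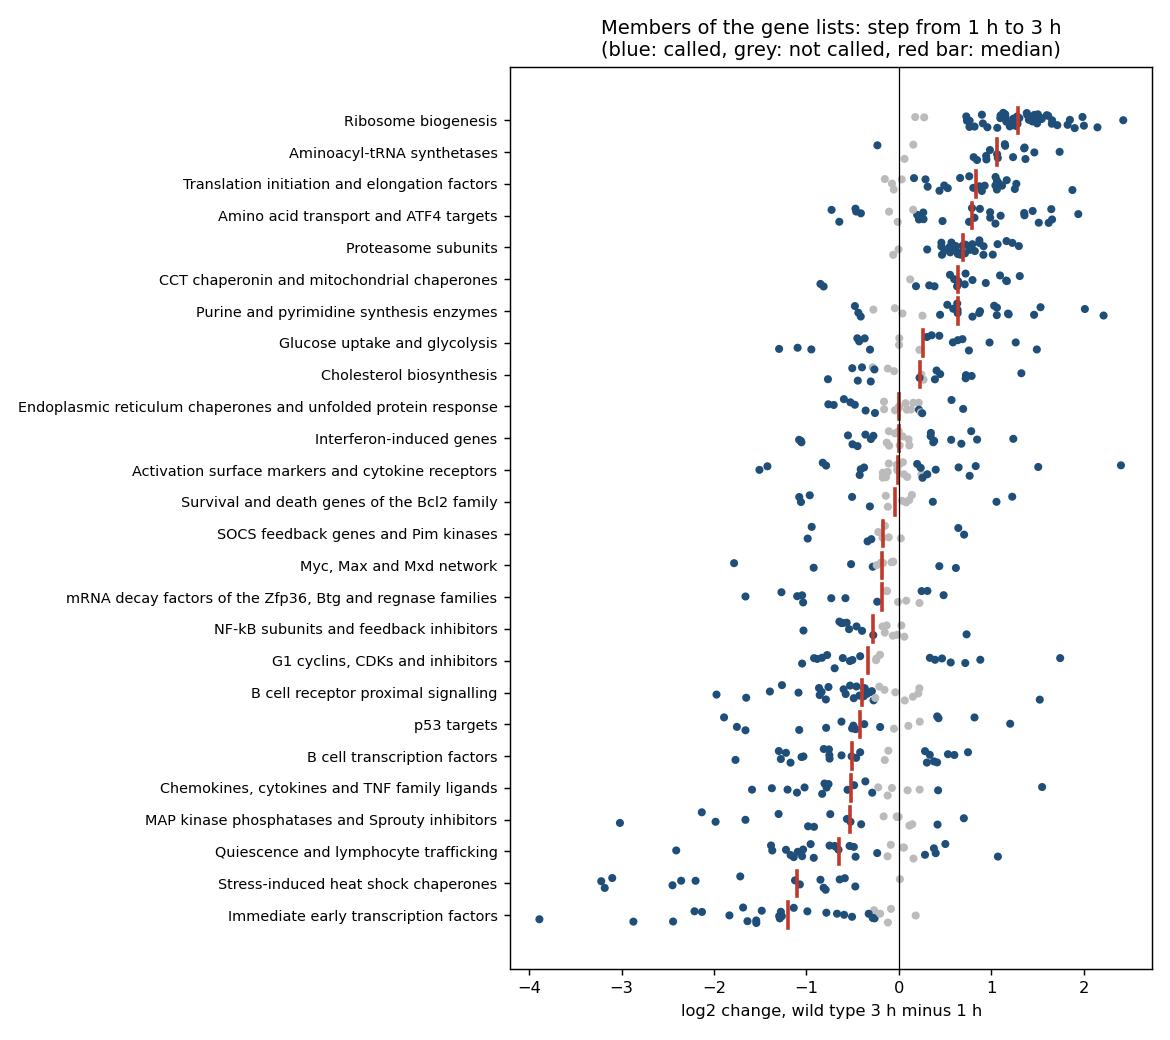
Change from 1 h to 3 h on the log2 scale (horizontal axis) for every tested member of the 26 gene lists (rows, ordered by their median); blue points are called, grey points not called, red bars medians. Medians run from -1.20 for immediate early transcription factors to 1.28 for ribosome biogenesis.

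Supply of building blocks followed. Of 29 genes of amino acid transport and ATF4 targets 21 rose and 5 fell (median 0.79). Mthfd2, the mitochondrial enzyme of one-carbon metabolism, read 9.38 and 9.30 at 1 h and 11.29 and 11.28 at 3 h, a rise of 1.94 ± 0.10 (adjusted p = 9.11e-12). Slc7a5, which imports leucine, read 11.53 and 11.68, then 13.37 and 13.16. Slc1a4, a carrier of alanine and serine, rose by 1.65 ± 0.13 and the cystine carrier gene Slc7a11 by 1.62 ± 0.15. Of 25 genes of purine and pyrimidine synthesis 18 rose and 3 fell (median 0.64). Ctps, which makes CTP, rose by 2.22 ± 0.12 from 8.37 and 8.17 to 10.59 and 10.39. Ppat, which commits precursors to purines, rose by 2.01 ± 0.11, Gart by 1.53 ± 0.10 and Adsl by 1.46 ± 0.09.

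Energy and lipid genes were divided. Of 20 genes of glucose uptake and glycolysis 10 rose and 7 fell (median 0.26). Slc16a1, the lactate carrier, rose by 1.49 ± 0.12 and Pgam1 by 1.27 ± 0.09, whereas the glucose transporter gene Slc2a1 read 12.65 and 12.63 at 1 h and 11.44 and 11.25 at 3 h, down to the level of 0 h (11.65 and 11.35). Pfkfb4 fell by 1.10 ± 0.15. Of 19 genes of cholesterol synthesis 8 rose (5 without the replicate block) and 6 fell (median 0.22), with Sqle up by 1.33 ± 0.09 and Dhcr7 down (-0.77 ± 0.12).

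Genes of protein folding and turnover differed between lists. Of 31 proteasome subunit genes 29 rose and 0 fell (median 0.69), with Psmd7 at 1.30 ± 0.13, Psmd1 at 1.23 ± 0.11 and Psma5 at 1.17 ± 0.12. Of 19 genes of the CCT chaperonin, which folds actin and tubulin, and of mitochondrial chaperones and import 16 rose and 2 fell (median 0.64). Timm10, a chaperone of the mitochondrial intermembrane space, rose by 1.31 ± 0.14 and the import pore gene Tomm40 by 1.17 ± 0.10. Chaperones of the endoplasmic reticulum did not shift as a list: 4 of 22 rose and 7 fell (2 and 4 without the replicate block; median 0.00), with Hyou1 up by 0.70 ± 0.08 and Pdia4 down (-0.70 ± 0.08). With the mean of its probe sets the change of Pdia4 was -0.20 and not called (adjusted p = 0.0928).

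Activation markers at the surface moved in both directions. Of 30 tested genes 10 rose and 7 fell (6 and 4 without the replicate block), with changes from -1.51 to 2.40 and a median of -0.01, after 21 had been higher at 1 h. The counts lay near the shares of all genes tested, of which 26.2% rose and 25.7% fell. Il2ra, the alpha chain of the interleukin 2 receptor, rose most. It read 9.46 and 8.77 at 0 h, 10.74 and 10.06 at 1 h, then 12.91 and 12.69 at 3 h, a rise of 2.40 ± 0.13 (adjusted p = 1.34e-11). Tfrc, the transferrin receptor that takes up iron, read 10.10 and 9.67 at 1 h and 11.58 and 11.21 at 3 h. Slamf1, a receptor of lymphocyte adhesion, fell by 1.42 ± 0.13 and Il10ra by 1.51 ± 0.12. Lrrc32, the docking receptor of latent TGF-β, climbed at both steps, with 8.16 and 7.78 at 0 h, 10.55 and 10.25 at 1 h, then 12.15 and 11.91 at 3 h. Gng4, a G protein gamma subunit, also climbed further (2.27 ± 0.22).

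Cell cycle regulators of G1 moved in both directions. Of 20 tested genes 7 rose (3 without the replicate block) and 10 fell (median -0.33). Cdk6, a kinase that drives exit from G1 with D cyclins, read 10.66 and 10.15 at 1 h and 12.29 and 12.02 at 3 h, a rise of 1.75 ± 0.10 (adjusted p = 4.29e-11). The cyclin gene Ccnd2 rose by 0.39 ± 0.12 from 11.98 and 11.99 to 12.49 and 12.27 (adjusted p = 0.00878), a call lost without the replicate block (0.0881) and without wild type 1 h replicate 1 (0.131) or 3 h replicate 1 (0.0515). Ccnd3 fell by 0.92 ± 0.12. The inhibitor genes Cdkn1b, which encodes p27, and Cdkn2d fell by 1.05 ± 0.11 and by 0.88 ± 0.12.

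Myc was already high at 1 h and stayed high. It read 11.67 and 11.44 at 0 h, 13.99 and 13.73 at 1 h, then 13.73 and 13.42 at 3 h. The step of -0.28 ± 0.08 (adjusted p = 0.00479) was not called without the replicate block (0.175) or without 3 h replicate 2 (0.0595). In the Myc, Max and Mxd network of 12 genes 2 rose (1 without the block) and 4 fell. Mxd1, an antagonist that competes for Max, fell by 1.78 ± 0.11 from 12.51 and 12.34 to 10.69 and 10.60, and Mxd4 by 0.92 ± 0.12.

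Survival genes of the Bcl2 family changed in opposite directions. Of 14 tested genes 3 rose and 5 fell, where 26.2% of all genes tested rose and 25.7% fell. Bcl2l1, which encodes Bcl-xL, read 7.28 and 7.53 at 0 h, 8.57 and 8.69 at 1 h, then 9.88 and 9.83 at 3 h, a rise of 1.23 ± 0.10 (adjusted p = 8.75e-09). Bcl2 went the other way, from 11.91 and 11.66 to 10.86 and 10.59 (-1.06 ± 0.09). Of the death-promoting genes, Bid rose by 1.06 ± 0.09 and Pmaip1, which encodes Noxa, fell by 1.08 ± 0.14. Of 18 p53 targets 11 fell and 4 rose, 4 of them switched off again, including the polo-like kinase gene Plk2 (-1.89 ± 0.14) and the death receptor gene Tnfrsf10b (-1.75 ± 0.17). Aen, an apoptosis-enhancing nuclease, rose by 1.21 ± 0.14.

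Genes of the receptor's own pathway fell. Of 32 tested genes of B cell receptor proximal signalling 23 fell and 1 rose (median -0.40). Syk, the kinase that couples the receptor to calcium, read 12.45 and 12.11 at 0 h, 12.23 and 11.84 at 1 h, then 10.33 and 10.43 at 3 h, and fell by 1.65 ± 0.11 (adjusted p = 1.85e-10). Cd22, an inhibitory co-receptor gene, read 13.00 and 12.63, then 11.00 and 10.69. Rasgrp1, which activates Ras, fell by 1.40 ± 0.10. The exception was the Src family kinase gene Fyn, which read 10.88 and 10.91 at 1 h and 12.44 and 12.40 at 3 h.

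Quiescence and B cell identity genes fell at the same step. Of 29 tested quiescence and trafficking genes 19 fell and 5 rose (3 without the replicate block; median -0.65). Rasgrp2, an activator of Rap1 and integrins, read 11.52 and 11.17 at 1 h, then 8.92 and 8.95 at 3 h, and fell by 2.41 ± 0.11 (adjusted p = 2.47e-12). Klf2, which maintains quiescence and trafficking receptors, fell by 1.38 ± 0.11 and Tsc22d3 by 1.37 ± 0.13. Of 25 B cell transcription factor genes 15 fell and 8 rose (5 without the block; median -0.51). Bcl11a fell by 1.77 ± 0.12, Ets1 by 1.22 ± 0.08 and Pax5, the factor of B cell commitment, by 1.03 ± 0.08. Prdm1, which encodes Blimp-1, was switched off again, with 8.62 and 8.25 at 0 h, 10.72 and 10.05 at 1 h, then 9.34 and 8.83 at 3 h.

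The largest falls among genes first lowered after 1 h, those of Cacna1i, Ceacam1 and Pgap1, lay outside these lists. Car1, also among the 4 largest of the class (-1.99 ± 0.17), is an erythroid marker and is read with the cell markers below. Cacna1i, a T-type calcium channel subunit gene, read 10.56 and 10.55 at 1 h, then 7.78 and 7.84 at 3 h, and fell by 2.75 ± 0.15 (adjusted p = 1.58e-11). Ceacam1, an inhibitory adhesion receptor gene, fell by 2.62 ± 0.17 and Pgap1, which trims GPI anchors, by 2.47 ± 0.09. Ceacam2, which is not of this class because it was higher at 1 h than at 0 h (0.63 ± 0.18), fell by 2.75 ± 0.18, from 10.82 and 9.75 to 7.68 and 7.39. Ceacam1 and Ceacam2 are close paralogs, and how far their probe sets share signal was not tested. The median of the class first lowered was -1.31 against 0 h at 3 h and -1.02 at 24 h, when 136 of 156 genes were still lower than at 0 h (26.8% of all genes tested were lower). This class too was chosen in part on the 0 h arrays, so the count is a description.

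Genes that dipped at 1 h and recovered included interferon-inducible GTPases. Irgm1 read 10.36 and 10.23 at 0 h, 9.03 and 8.79 at 1 h, then 10.77 and 10.85 at 3 h, a rise of 1.90 ± 0.09 (adjusted p = 9.11e-12). Gm12250, of the same family, rose by 1.93 ± 0.09 from 8.13 and 7.82 to 10.02 and 9.80. Ifit3, which binds foreign RNA, rose by 1.24 ± 0.13. The wider list did not share this: of 27 interferon-induced genes 9 rose and 9 fell (5 and 5 without the replicate block; median 0.00), after 21 had been lower at 1 h, and Ddx58, which encodes the RNA sensor RIG-I, Oas2 and Herc6 fell by 1.08 ± 0.09, 1.06 ± 0.14 and 1.05 ± 0.11. Without wild type 1 h replicate 1 the class held 25 genes in place of 16.

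The array also carried probe sets for 98 tested microRNA genes, of which 17 rose (9 without the replicate block) and 7 fell. Both shares lay below those of all genes tested, of which 26.2% rose and 25.7% fell. These microRNA genes were singled out after their values were seen. The probe sets read precursor or host transcripts, not mature microRNAs. Mature sequences (RefSeq, GRCm38.p6) of the members described are given with the seed, bases 2 to 8, in capitals, and those that share a seed stand together.
mmu-miR-155-5p: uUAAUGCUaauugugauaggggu
mmu-miR-17-5p: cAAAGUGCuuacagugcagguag
mmu-miR-18a-5p: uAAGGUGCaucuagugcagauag
mmu-miR-19a-3p: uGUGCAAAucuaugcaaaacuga
mmu-miR-19b-3p: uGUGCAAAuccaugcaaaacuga
mmu-miR-132-3p: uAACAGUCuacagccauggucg
mmu-miR-212-3p: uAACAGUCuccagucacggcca
mmu-miR-27a-3p: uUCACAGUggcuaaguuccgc
mmu-miR-23a-3p: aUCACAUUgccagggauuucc
mmu-miR-24-3p: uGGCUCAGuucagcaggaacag
mmu-miR-15a-5p: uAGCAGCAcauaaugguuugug
mmu-miR-142a-3p: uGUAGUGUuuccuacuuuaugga

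Mir155 and the Mir17 cluster are known for their induction in activated lymphocytes. Mir155 (chr16, plus strand) read 6.90 and 7.66 at 0 h, 10.59 and 10.28 at 1 h, then 11.60 and 11.49 at 3 h, a rise of 1.11 ± 0.20 (adjusted p = 9.94e-05). The host gene Mir17hg read 8.13 and 7.72, then 9.14 and 8.90 (1.09 ± 0.16), and within its cluster on chr14 Mir19a rose by 1.24 ± 0.31, Mir18 by 0.99 ± 0.24, Mir19b-1 by 0.89 ± 0.19 and Mir17 by 0.55 ± 0.21. For Mir17 the arrays of 1 h and 3 h overlapped, and the call was lost without the replicate block (adjusted p = 0.0975). The mature miR-19a-3p and miR-19b-3p share the seed GUGCAAA. These probe sets lie on 1 transcript and are not independent.

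The microRNA genes that fell lay mostly in clusters. Mir132 and Mir212 lie side by side on chr11, and their mature 3p forms share the seed AACAGUC. Mir132 read 8.78 and 8.25 at 1 h, then 7.50 in both 3 h arrays, and fell by 1.02 ± 0.15. Mir212 read 10.28 and 10.45, then 9.12 and 9.24, and fell by 1.18 ± 0.10. In the cluster on chr8, Mir27a fell by 1.30 ± 0.14, Mir23a by 0.76 ± 0.18 and Mir24-2 by 0.62 ± 0.12. Mir142 fell by 0.89 ± 0.22. Mir15a, on chr14, read 7.80 and 8.27 at 0 h, 9.66 and 9.79 at 1 h, then 8.70 and 8.67 at 3 h. Mir132, Mir212, Mir27a and Mir15a were among the genes switched off again.

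**Figure D4:**
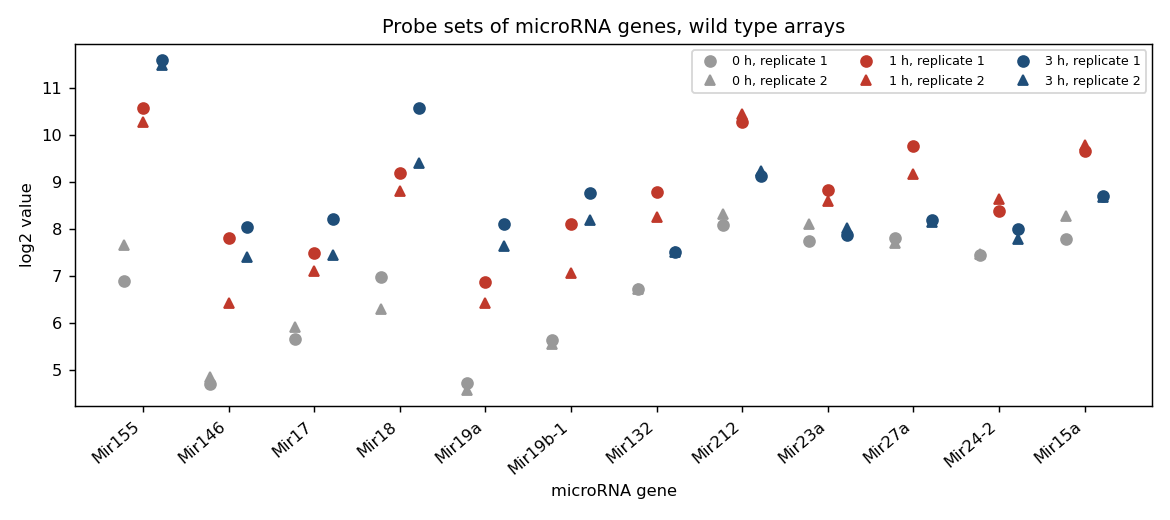
Log2 values (vertical axis) of the probe sets of 12 microRNA genes (horizontal axis) in wild type arrays at 0 h (grey), 1 h (red) and 3 h (blue); circles and triangles are replicates 1 and 2. Mir155 and the Mir17 cluster lie higher at 3 h than at 1 h, with overlap for Mir17, Mir146 rose by 0.61 with overlap (not called without the replicate block, adjusted p = 0.179), and Mir132, Mir212, Mir23a, Mir27a, Mir24-2 and Mir15a lie lower.

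Markers of the sorted cells and of other cells were read in the same arrays. Pan B cell markers were high throughout, with a mean level of 12.5 to 12.8 at 1 h and 12.0 to 12.2 at 3 h, and 10 of 12 fell while 1 rose (0 without the replicate block); Cd22, Pax5, Cd37 and Fcer2a fell by 1.97, 1.03, 0.95 and 0.65. Monocyte or macrophage markers stood at a mean of 8.80 to 9.08 at 1 h and 7.92 to 7.99 at 3 h, 14 of 19 fell and 1 rose, and Fcgr1, Cd163, Fcgr4 and Marco never reached the median of all values at either time. The complement genes C1qc and C1qb and the adhesion receptor gene Vcam1 fell by 2.36, 2.26 and 1.87, continuing a fall that 17 of the 19 had begun by 1 h.

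NK cell markers fell in 6 of 9 cases and rose in 0, from a mean of 9.31 to 9.63 at 1 h to 8.45 to 8.65 at 3 h. They include Gzmb and Prf1, genes of cytotoxic granules that were counted above among those switched off again, which fell by 2.01 ± 0.17 and by 1.63 ± 0.11, and Ifng is also made by these cells. T cell markers fell in 9 of 11 cases and rose in 0 (9.96 to 10.2 at 1 h, 9.57 at 3 h in both arrays), with Lat, Thy1 and Cd8a at -0.81, -0.80 and -0.66. Dendritic cell markers fell in 5 of 9 and rose in 1 (8.46 to 8.73, then 8.12 to 8.14), neutrophil markers fell in 6 of 14 and rose in 2 (1 without the block; 8.69 to 8.85, then 8.56 to 8.58), erythroid markers fell in 4 of 9 and rose in 0 (7.87 to 7.94, then 7.32 to 7.48), and plasma cell markers fell in 4 of 7 and rose in 0 (10.0 to 10.2, then 9.54 to 9.67). The erythroid markers Alas2, Epb42, Rhag, Rhd and Gata1 and the neutrophil markers Mmp8 and Ly6g stayed below the median of all values at both times. Erythroid signal was not absent, however. Car1 was bright, with 11.87 and 11.72 at 1 h, then 9.85 and 9.76 at 3 h (-1.99 ± 0.17), and Car2 fell by 0.81 ± 0.16. In TAK1-deleted cells Car1 read 13.22 and 12.94, then 12.12 and 11.51. The difference between its steps was not called (-0.72 ± 0.24, adjusted p = 0.136), and the difference in level was not tested. The part of all these cell types in the changes above was not tested.

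The same step was then read in the TAK1-deleted B cells, on arrays that the wild type values do not use. Map3k7 read 10.41 and 10.19 at 1 h and 10.71 and 10.52 at 3 h in wild type and 10.73, 10.46, 10.76 and 10.61 in TAK1-deleted cells. Its level was thus not lower in the deleted cells; where its probes lie against the deleted part was not analysed here, so the values do not check the genotype. The wild type step of 0.31 ± 0.08 was called (adjusted p = 0.00353, but 0.0994 without the replicate block). In TAK1-deleted cells 2810 genes rose (23.5%) and 2928 fell (24.5%) between 1 h and 3 h.

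Most genes of the wild type classes moved the same way without TAK1. Of the 149 genes switched off again 147 had also been higher at 1 h than at 0 h in TAK1-deleted cells (15.1% of all genes were), 144 then fell, 0 rose and 5 had no call, with a median step of -1.11 against -1.37 in wild type. The 5 were 1810046K07Rik, Clcn6, Cstad, Nrarp and Tmem88. Of the 311 newly switched on genes 310 rose and 1, Reep6, fell, with a median of 0.98 against 1.27. Of the 156 genes first lowered 154 fell and 2 had no call, with a median of -1.14 against -1.23. Since the classes were chosen on the wild type values, a larger wild type median follows in part from the choice and was not tested.

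A test of the difference itself called 241 genes (2.01%), 128 with a more positive step in wild type and 113 with a more negative one. Leaving out the replicate block left 12 genes, and leaving out TAK1-deleted 1 h replicate 1 left 62. Of the 241, 96 had steps of opposite sign and 37 were called in opposite directions. Of the lists, activation surface markers held 6 of them among 30 genes, quiescence and trafficking 5 of 29, immediate early factors 4 of 30 and heat shock chaperones 2 of 16, and ribosome biogenesis 0 of 47. At an unadjusted p below 0.05 the difference passed for 1717 genes.

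Hspa1l showed the largest difference. In TAK1-deleted cells it read 6.55 and 6.53 at 0 h, 8.73 and 8.20 at 1 h, then 6.84 and 6.78 at 3 h. Both genotypes thus returned to about the same level from unequal peaks, a difference of -2.26 ± 0.20 between steps (adjusted p = 3.56e-06, and 0.00032 without the replicate block). Coro2a, a coronin gene of the actin cytoskeleton, rose by 0.82 ± 0.08 in wild type, from 10.53 and 10.32 to 11.34 and 11.15, and fell by 0.83 in TAK1-deleted cells, from 10.61 and 10.42 to 9.85 and 9.52 (difference 1.66 ± 0.12, adjusted p = 1.52e-07). Axl, a receptor kinase gene of phagocytes, stepped by -0.32 in wild type, which was not called (adjusted p = 0.0642), and fell by 1.83 without TAK1 (difference 1.51 ± 0.20). The uncharacterised gene 1810046K07Rik read 9.04 and 8.86 at 0 h in wild type, was induced and fell (10.45 and 9.90, then 8.81 and 8.25). In TAK1-deleted cells it read 7.50 and 7.84 at 0 h, then 7.52, 7.61, 7.49 and 7.83. Its values in the deleted cells thus lay lower before stimulation, near the median of all values.

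The remaining pair also started from unequal levels. Reep6, which shapes the endoplasmic reticulum, read 8.39 and 8.45 at 1 h and 9.89 and 9.58 at 3 h in wild type, but 10.54 and 10.18, then 10.26 and 9.72 in TAK1-deleted cells. Asns, the asparagine synthetase gene, rose by 0.99 ± 0.15 in wild type, from 8.36 and 8.22 to 9.50 and 9.06, and read 10.60 and 9.77, then 10.00 and 9.47 in TAK1-deleted cells. The differences of 1.69 ± 0.20 and 1.44 ± 0.21 were not called without the replicate block (adjusted p = 0.117 and 0.298), while those of the other 4 were.

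**Figure D5:**
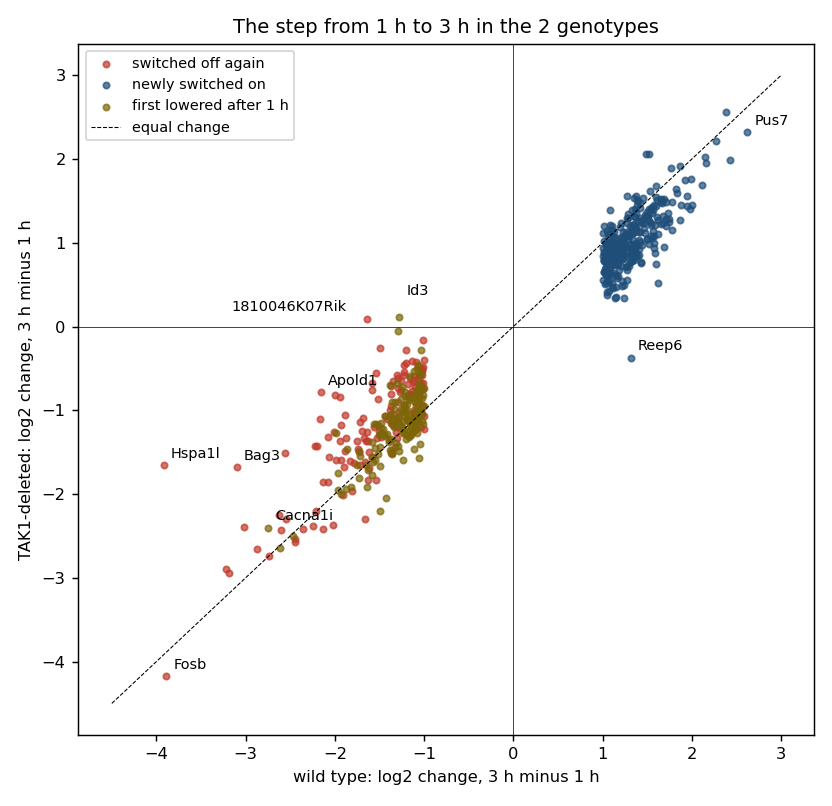
Change from 1 h to 3 h on the log2 scale in wild type (horizontal axis) and in TAK1-deleted cells (vertical axis) for the genes switched off again, newly switched on and first lowered after 1 h, chosen on the horizontal values; each point is a gene and the dashed line marks equal change. Hspa1l and Bag3 lie above the line, Reep6 below it, and most other genes near it.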

How the data were processed

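RNA of 20 arrays (Affymetrix Mouse Gene 1.0 ST) was compared in 10 groups of 2. Per the submitters' processing notes, the authors made the deposited log2 values with RMA and Affymetrix Expression Console 1.0. The genome build behind the probe sets is not given in the sources used here.

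Of 35556 probe sets 20326 were at or above 7.45, the median over the whole table, in 2 or more arrays. Those with 1 gene symbol were kept, and the brightest probe set per gene gave 11968 genes. Array medians were 7.37 to 7.52. Group means and the replicate number as a block were fitted on all arrays with limma 3.58.1 in R 4.3.3. The fit used eBayes with an intensity trend (9 residual degrees of freedom) and Benjamini-Hochberg adjustment over all genes. It was also run on data simulated from the same model with independent noise. Such data cannot show whether replicates are technical repeats or whether genes vary together. The replicate numbers come from the labels, and deviations of same-numbered arrays correlated in every pair of groups (0.191 to 0.769, with 0.542 between wild type 1 h and 3 h).

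Genes were named by rule: the 10 largest rises and 10 largest falls, the 8 or 4 largest per class, up to 4 per list, 12 fixed genes and the 6 largest genotype differences; microRNA and Zfp genes and a few others were named after their values were seen. The class members and lists were chosen with earlier results of these data known. Alternatives varied the block, samples, filter, probe set rule, scaling, variance prior and class fold.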

Additional observations from a re-analysis of the deposited data

Results flagged for a closer look

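The step from 1 h to 3 h differed between wild type and TAK1-deleted cells in 241 genes by limma's test of the difference (adjusted p below 0.05), and 19 of the genes named by rule were among them. A negative value means a lower step in wild type. Besides Hspa1l (-2.26), 1810046K07Rik (-1.74), Reep6 (1.69), Coro2a (1.66), Axl (1.51) and Asns (1.44), given above, these were Bag3 (-1.43), Id3 (-1.39), Plk2 (-0.83), Prdm1 (-0.72) and Mmp8 (-0.69) with a lower step in wild type. In wild type Mmp8 stayed below the median of all values at 1 h and 3 h.

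A higher step in wild type was seen for Ccl22 (0.99), Ccnd2 (0.90), Gm12250 (0.88), Irgm1 (0.82), Tfrc (0.71), Bcl2 (0.70), Dusp10 (0.64) and Nars (0.53). Ccnd2 read 11.13 and 10.90 at 1 h and 10.85 and 10.17 at 3 h in TAK1-deleted cells, a fall where wild type cells rose. Id3, an inhibitor of E proteins, fell by 1.28 ± 0.12 in wild type and read 7.97, 8.04, 8.34 and 7.91 in TAK1-deleted cells, where it was already low at 1 h. Without the replicate block 6 of the 19 kept the call (Hspa1l, 1810046K07Rik, Coro2a, Axl, Bag3 and Id3) and 13 did not. With 2 arrays in a group, the gap test for a single outlying array does not apply.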

How the results depend on the processing

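Of 164 genes named by rule 163 were called in the step and 154 under every alternative; no direction reversed. The split of calls changed little, with 50.5% of calls rising, 47.3% to 54.0% over all alternatives, and centring each array moved the median step by -0.01. With 1.5-fold in place of 2-fold, 365 genes were switched off again, 828 newly switched on, 530 first lowered, 83 climbed further and 199 dipped and recovered. Without the replicate block, genes first lowered numbered 245, genes newly switched on 416 and genes with a genotype difference 12. Genes first lowered and newly switched on must have no call at 1 h, so that a gene losing that call can enter. Without the block, of the genes named by rule, Ccnd2, Jchain, Map3k7, Myc and Tnfaip3 lost the call for the step, as did Mir17 and Mir146 among the microRNA genes described. Counts of list members that moved by over 1.5 times are given beside them, and 13 of 19 named genotype differences lost their call.

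With each array left out in turn, genes first lowered numbered 128 to 245 (245 without wild type 1 h replicate 2), genes that dipped and recovered 12 to 25 (25 without wild type 1 h replicate 1) and genes with a genotype difference 62 to 220 (130, 137 and 131 without wild type 1 h replicate 1, 1 h replicate 2 and 3 h replicate 2, and 62 without TAK1-deleted 1 h replicate 1). Calls for Ccnd2, Itgax, Jchain, Klf1, Myc or Socs6 were lost in at least 1 of these. The causes were not tested. With 2 arrays in a group, small steps and differences between genotypes are the least secure values; dim probe sets are limited by RMA background.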

Other observations

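Gene families not in the lists were picked by symbol after their values were seen, so their counts are descriptions. Of 258 tested Zfp genes, most of which encode zinc finger proteins, 137 were lower and 32 higher at 1 h than at 0 h. Of all genes tested 26.1% were lower and 17.2% higher. Between 1 h and 3 h 98 Zfp genes rose, 40 fell (24 without the replicate block) and the rest had no call, a median of 0.17 against 0.00 over all genes. Their median stood at -0.35 at 1 h and at -0.10 at 3 h against 0 h. Zfp52 read 10.04 and 9.47 at 0 h, 9.24 and 8.36 at 1 h, then 11.36 and 11.03 at 3 h. Zfp948, read 8.52 and 7.93, then 7.49 and 7.23, then 9.48 and 9.33. In TAK1-deleted cells 114 Zfp genes rose and 36 fell at this step, where 23.5% of all genes tested rose and 24.5% fell.

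Histone genes went the other way: 19 of 23 fell and 0 rose between 1 h and 3 h, with a median of -0.57, and 18 fell in TAK1-deleted cells (24.5% of all genes tested did). Of 77 genes of mitochondrial ribosomal proteins 56 rose and 1 fell (0 without the block; median 0.51), and of 47 Ddx and Dhx helicase genes 26 rose and 7 fell (4 without the block; median 0.27). Of 27 Snord small nucleolar RNA genes 7 rose and 1 fell (median 0.19), a share of rises near that of all genes. Slc25 carriers of the inner mitochondrial membrane did not share the direction, with 10 of 38 up and 14 down (9 without the block).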
